A study of Saccharomyces cerevisiae with 18 samples.

Results

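The genes described here are 46 genes of the Saccharomyces cerevisiae cell wall and of the cell wall integrity pathway, picked by name from the 6692 gene probes of the count tables. They comprise 4 Pir proteins, 13 GPI-anchored wall mannoproteins, 3 genes of SUN family and other secreted proteins, 5 glucan synthases and glucanosyltransferases, 4 glucanases, 4 chitin enzymes, 1 mannosyltransferase, 5 wall sensors and 7 genes of the pathway downstream of them. All 46 had a probe (WSC1 under its other name, SLG1), and 45 of them had enough reads to be tested. RNA was taken from ZCZ01, a derivative of BY4741 in which the GAL1-10 promoter drives the protein phosphatase gene PPZ1, and from wild type BY4741. Both strains were grown on raffinose and both received galactose, so the strains differ in the promoter of PPZ1 and share the change of carbon source. Samples of the 2 strains were taken at 0.5, 2 and 4 h after galactose in 3 experiments, which gave 18 libraries, 3 for each strain and time.

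The yeast wall is a network of β-1,3-glucan to which β-1,6-glucan, chitin and heavily mannosylated proteins are attached. GPI proteins reach the wall through a cleaved lipid anchor and β-1,6-glucan, whereas Pir proteins are bound directly to β-1,3-glucan through an internal repeat. Stress on the wall is sensed by plasma membrane proteins of the Wsc and Mid2 families, which act through the GTPase Rho1 and protein kinase C on a MAP kinase cascade ending in Slt2, and Slt2 activates the transcription factor Rlm1.

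Levels are given as CPM, reads scaled by TMM to a common library size, in the order of experiments 1, 2 and 3. Changes are log2 ratios with their standard error (SE). The libraries were made from the 3′ end of transcripts, so levels were not divided by gene length, and they are shares of each library rather than amounts per cell. The strains were compared at each time with the quasi-likelihood test of edgeR. The fit held 5658 genes, and the libraries of 1 experiment and time formed a pair. All adjusted p values are Benjamini-Hochberg values over all genes tested, and a gene was said to pass, rise or fall at an adjusted p under 0.05. PPZ1 itself, as the check of the strain labels, had log2 fold changes of 5.17, 5.08 and 2.89 at 0.5, 2 and 4 h. In ZCZ01, experiment 1 had its highest PPZ1 level at 0.5 h, with 508 CPM, and experiments 2 and 3 had theirs at 2 h. Libraries held 955972 to 1920193 counts. Libraries of experiments 2 and 3 differed little from each other, at a chi-square of 1.12 to 2.60 per degree of freedom, and more from experiment 1, at 20.8 to 44.6. The depth of experiment 3 over experiment 2 was also nearly constant, at 1.323 to 1.335 across the groups. The p values, SDs and statements on overlap and pairs therefore count as independent 2 experiments that are nearly alike. Calls that are lost without experiment 2 or 3, or when both are summed to 1 replicate, are therefore given with each group of genes. The library names and the sample titles give different times for 12 of the 18 libraries. The library names were used, and with the times of the titles 0 of the 45 genes passed at any of the 3 times. Over all 5658 genes, 0, 2 and 1 were then higher at 0.5, 2 and 4 h, and 0 were lower at each time.

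Of the 45 genes tested, 4 differed between the strains at 0.5 h, 24 at 2 h and 26 at 4 h. At 0.5 h, 1 of 45 was higher in ZCZ01 (background over all genes tested 4.56%) and 3 were lower (background 2.30%). At 2 h, 15 were higher in ZCZ01 (33.3%, background 19.1%) and 9 were lower (20%, background 23.2%). At 4 h the balance was the other way, with 8 higher (17.8%, background 19.9%) and 18 lower (40%, background 21.4%). Changes of at least 2-fold were found at 2 h in 9 genes upward (background 10.7%) and 4 downward (background 9.70%). At 4 h they were found in 5 genes upward (background 10.2%) and 13 downward (background 10.4%). Over the 45 genes the median log2 fold change for these 3 times, in order, was -0.07, 0.23 and -0.28. Over all genes tested it was 0.0082, -0.05 and 0.0026. Counts at 0.5 h rested on experiments 2 and 3, and all 4 genes that passed also passed without experiment 1. The genes higher were 8, 0 and 0 without experiments 1, 2 and 3, and 0 with 2 and 3 summed. The genes lower were 7, 0 and 0 without experiments 1, 2 and 3, and 0 with 2 and 3 summed. At 2 h the genes lower were 11, 6 and 6 without experiments 1, 2 and 3, and 6 with 2 and 3 summed. At 4 h the genes higher were 9, 5 and 5 without experiments 1, 2 and 3, and 5 with 2 and 3 summed. Under these settings, in the same order, 5585, 5686, 5646 and 5731 genes were tested in all. Higher at 0.5 h were 778, 15, 11 and 5 of them, and lower 660, 4, 3 and 0. Higher at 2 h were 1519, 594, 522 and 640, and lower 1565, 707, 646 and 726. Higher at 4 h were 1510, 627, 539 and 688, and lower 1455, 699, 644 and 723.

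**Figure D1:**
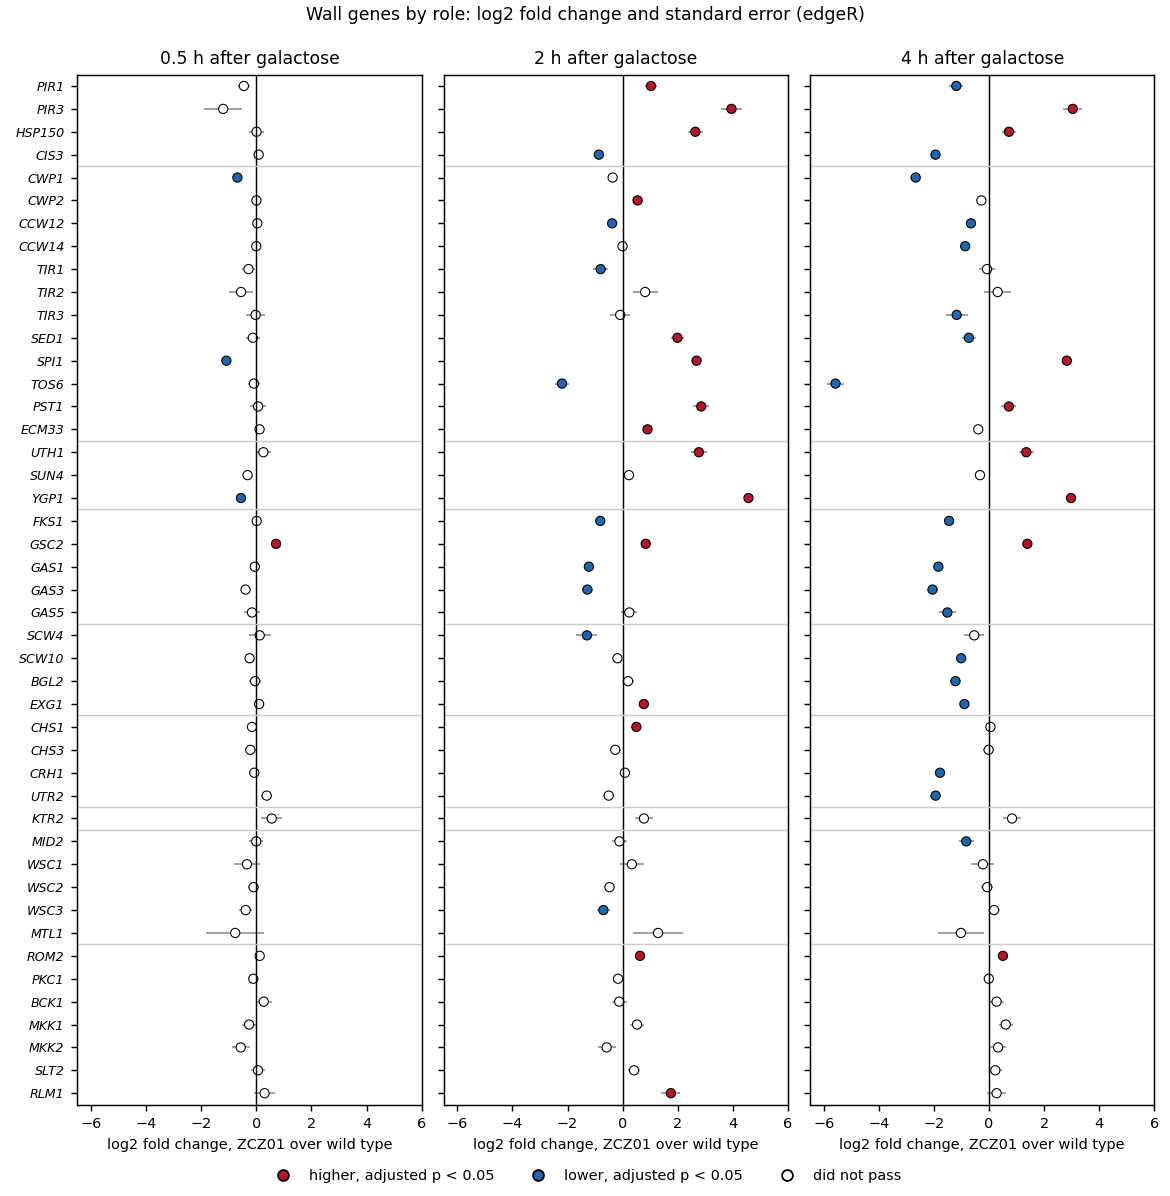
Log2 fold change of ZCZ01 over wild type (horizontal axis) with its standard error for 45 wall genes at 0.5, 2 and 4 h, with genes grouped by role from the Pir proteins at the top to the kinase pathway at the bottom. Filled points passed at an adjusted p under 0.05: 1 higher and 3 lower at 0.5 h, 15 higher and 9 lower at 2 h, and 8 higher and 18 lower at 4 h.

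The 4 Pir proteins did not move together. At 2 h PIR1, PIR3 and HSP150 were higher in ZCZ01 and CIS3 was lower, and at 4 h PIR3 and HSP150 were higher and PIR1 and CIS3 lower. That is 75% higher (against 19.1% of all genes tested) and 25% lower (against 23.2%) at 2 h. At 4 h it is 50% higher (against 19.9%) and 50% lower (against 21.4%). PIR3 (YKL163W, chrXI:144401-145378), which with PIR1 forms a pair of neighbouring Pir genes, had 19.1, 61.7 and 57.7 CPM in ZCZ01, against 1.26, 5.48 and 2.35 CPM in wild type at 2 h. Its levels at 4 h were 22.6, 70.9 and 62.0 CPM in ZCZ01, against 3.55, 6.60 and 7.72 CPM in wild type. ZCZ01 libraries were above every wild type library at both times, although experiment 1 reached less than the others. Its log2 fold change was 3.95 (SE 0.39, adjusted p = 4.3e-06) at 2 h and 3.04 (SE 0.35, adjusted p = 1.4e-05) at 4 h. At 0.5 h only 5 reads of PIR3 were counted over the 3 ZCZ01 libraries and 11 over those of wild type.

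HSP150 (YJL159W, chrX:120449-121690), a Pir protein that is also secreted on heat shock, had 561, 720.1 and 681 CPM in ZCZ01, against 182, 87.7 and 68.2 CPM in wild type at 2 h, with no overlap. By 4 h the gap was smaller, with 293, 339 and 300.2 CPM in ZCZ01, against 220.4, 201 and 149 CPM in wild type, again with no overlap. On the log2 scale the change was 2.64 (SE 0.28, adjusted p = 7.2e-06) at 2 h and 0.72 (SE 0.26, adjusted p = 0.038) at 4 h. PIR1 (YKL164C, chrXI:141794-142819) turned from higher to lower. It had 895, 248 and 299 CPM in ZCZ01, against 556, 113 and 121 CPM in wild type at 2 h, where experiment 1 was far above the other experiments in both strains. At 4 h it had 228, 64.8 and 61.0 CPM in ZCZ01, against 941, 103 and 95.4 CPM in wild type. The groups overlapped at both times, while ZCZ01 was above wild type in each of the 3 pairs at 2 h and below it in each at 4 h. The log2 fold change of PIR1 was 1.03 (SE 0.23, adjusted p = 0.0031) at 2 h and -1.19 (SE 0.25, adjusted p = 0.0019) at 4 h.

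CIS3 (YJL158C, chrX:122265-122948), a Pir protein with a single repeat, fell. At 2 h it had 1418, 868 and 918 CPM in ZCZ01, against 1974, 1878 and 1838 CPM in wild type, while its levels at 4 h were 429, 323 and 339 CPM in ZCZ01, against 1825, 1149 and 1273 CPM in wild type. All ZCZ01 libraries lay below all wild type libraries at these times. In the paired fit the change was -0.86 (SE 0.13, adjusted p = 0.00015) at 2 h and -1.94 (SE 0.13, adjusted p = 1.2e-07) at 4 h. Among the Pir genes, the call of HSP150 at 4 h was lost in the smaller data sets, with log2 fold changes of 0.71 without experiment 2, 0.60 without experiment 3 and 0.67 with experiments 2 and 3 summed. PIR1 moved from -1.19 to -0.63 at 4 h when experiment 1 was left out, and without the pairing of libraries it did not pass at 2 h (0.87) or 4 h (-1.69). PIR1 and PIR3 each share 3 of 426 windows of 75 bases with another place in the genome, so a small part of their reads cannot be assigned with certainty.

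Of the 13 GPI-anchored wall proteins, 12 were tested. At 2 h, 5 were higher in ZCZ01 (41.7%, against 19.1% of all genes tested) and 3 lower (25%, against 23.2%). At 4 h 2 were higher (16.7%, against 19.9%) and 6 lower (50%, against 21.4%). The genes with the largest rises, PST1, SPI1 and SED1, encode proteins known to accumulate in stressed or stationary cells. PST1 (YDR055W, chrIV:563527-564861), which is induced by wall damage, had 247, 346 and 359 CPM in ZCZ01, against 64.8, 28.2 and 39.98 CPM in wild type at 2 h. Its levels at 4 h were 117, 163 and 145 CPM in ZCZ01, against 86.3, 81.1 and 87.7 CPM in wild type. The ZCZ01 libraries were above those of wild type at both times, with experiment 1 lowest among the ZCZ01 libraries. The log2 fold change was 2.85 (SE 0.29, adjusted p = 5.7e-06) at 2 h and 0.72 (SE 0.27, adjusted p = 0.048) at 4 h.

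SPI1 (YER150W, chrV:468370-468816), a gene of stationary phase and weak acid stress, was the only one of the 12 that was lower early and higher later. It had 46.9, 105 and 90.2 CPM in ZCZ01, against 97.5, 217 and 200.02 CPM in wild type at 0.5 h, where the groups overlapped between experiments but ZCZ01 was lower in each pair. At 2 h it had 388, 398 and 411 CPM in ZCZ01, against 59.1, 60.3 and 67.0 CPM in wild type, and at 4 h 463, 439 and 461 CPM in ZCZ01, against 74.5, 79.2 and 43.5 CPM in wild type. The groups did not overlap at these times, and the ZCZ01 libraries were nearly equal. This corresponded to log2 fold changes of -1.09 (SE 0.17, adjusted p = 0.0021) at 0.5 h, 2.68 (SE 0.17, adjusted p = 7.1e-08) at 2 h and 2.82 (SE 0.18, adjusted p = 3.7e-08) at 4 h. SED1 (YDR077W, chrIV:600793-601809), the major wall protein of stationary cells, rose at 2 h and fell at 4 h. Its levels were 1381, 1152 and 1024 CPM in ZCZ01, against 473, 268 and 204 CPM in wild type at 2 h, with no overlap. At 4 h they were 679.6, 424 and 379 CPM in ZCZ01, against 1126, 718 and 617 CPM in wild type, which overlapped between experiments. ZCZ01 over wild type gave a log2 fold change of 1.99 (SE 0.25, adjusted p = 3.1e-05) at 2 h and -0.73 (SE 0.24, adjusted p = 0.025) at 4 h.

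Some calls of this group depended on experiments 2 and 3 being counted apart. For PST1 at 4 h the log2 fold change was 0.59 without experiment 2, 0.74 without experiment 3 and 0.67 with experiments 2 and 3 summed. For SED1 at 4 h it was -0.71 without experiment 2, -0.72 without experiment 3 and -0.71 with experiments 2 and 3 summed. For SPI1 at 0.5 h it was -1.12 without experiment 2, -1.07 without experiment 3 and -1.10 with experiments 2 and 3 summed. None of these values passed. The 600 bases before the start codon of each gene were searched on both strands for TANNNNTAG, the core letters of the site bound by Rlm1. They are shown for 5 genes that changed in different directions, each in a window of 30 bases read 5′ to 3′ on the coding strand of the gene (build R64), with the letters of the motif in capitals.
PST1 (chrIV:563212-563241, plus strand, 304 bases before the start codon): ttacgagtctcTAAAAATAGcgtaggcaca
SED1 (chrIV:600303-600332, plus strand, 479 bases before the start codon): gcatatatcgcTAAAATTAGccatcagaac
HSP150 (chrX:120216-120245, plus strand, 222 bases before the start codon): acattttgagcTAAATTTAGattttggtca
PIR3 (chrXI:144111-144140, plus strand, 279 bases before the start codon): gattagcaaacTAATTATAGatcaaaggcc
CWP1 (chrXI:260736-260765, plus strand, 385 bases before the start codon): tacgtcataacTAAAAATAGcgttagccac
In each window the letters are preceded by C, so that the same place shifted by 1 base also matches on the other strand. PST1 and CWP1 hold the same 9 letters, and at 4 h PST1 was higher and CWP1 lower in ZCZ01. The motif was present in 39 of the 46 windows (84.8%) and in 70.4% of the 6656 windows of all genes, so such matches are common, and they are given as a description of sequence only.

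The largest fall among the 45 genes was that of TOS6 (YNL300W, chrXIV:65744-66052), a GPI wall protein gene named as a target of the cell cycle factor SBF. At 2 h it had 28.4, 23.1 and 22.6 CPM in ZCZ01, against 150.3, 97.8 and 96.4 CPM in wild type, and at 4 h it had 2.21, 4.05 and 4.10 CPM in ZCZ01, against 169.6, 183 and 152 CPM in wild type. No library overlapped at either time, and at 4 h only 18 reads were counted over the 3 ZCZ01 libraries, against 697 in those of wild type. On the log2 scale the change was -2.20 (SE 0.25, adjusted p = 1.2e-05) at 2 h and -5.57 (SE 0.32, adjusted p = 1.8e-08) at 4 h. CWP1 (YKL096W, chrXI:261132-261851), a wall mannoprotein deposited at birth scars, had 164, 225 and 250.4 CPM in ZCZ01, against 290.3, 371 and 358 CPM in wild type at 0.5 h. At 2 h its groups overlapped, with 124, 215 and 243 CPM in ZCZ01, against 231, 267 and 228 CPM in wild type. At 4 h it had 25.9, 33.1 and 31.3 CPM in ZCZ01, against 185, 189.5 and 195 CPM in wild type, with every ZCZ01 library far below wild type. In the paired fit the change was -0.69 (SE 0.17, adjusted p = 0.026) at 0.5 h, -0.36 at 2 h, where it did not pass, and -2.66 (SE 0.20, adjusted p = 2.1e-07) at 4 h.

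TIR3 (YIL011W, chrIX:333727-334536), a mannoprotein of cold and anaerobic growth, had 16.0, 6.08 and 11.8 CPM in ZCZ01, against 44.3, 15.1 and 19.6 CPM in wild type at 4 h. The groups overlapped, and the log2 fold change was -1.18 (SE 0.40, adjusted p = 0.029). Among the other GPI genes, ECM33 (0.90), the paralog of PST1, and CWP2 (0.54) were higher in ZCZ01 at 2 h by log2 fold change. CCW12 was lower at 2 h (-0.38) and at 4 h (-0.66), TIR1 was lower at 2 h (-0.80), and CCW14 was lower at 4 h (-0.87). CCW12 encodes a small and very abundant wall protein, and it averaged 9856 ± 4430.1 CPM in ZCZ01 and 16081 ± 9062 CPM in wild type at 4 h (SD, n = 3 each). TIR2 did not pass at any time, with log2 fold changes of -0.55, 0.81 and 0.31 at 0.5, 2 and 4 h. DAN1, a mannoprotein of anaerobic cells, was too low to be tested. It had 0, 1 and 3 counts at 0.5 h, 13, 0 and 6 at 2 h and 2, 2 and 3 at 4 h in ZCZ01, and 0 counts in all 9 wild type libraries.

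For 5 of these calls the smaller data sets did not reach the threshold. The log2 fold change of CWP1 at 0.5 h was then -0.69 without experiment 2, -0.79 without experiment 3 and -0.73 with experiments 2 and 3 summed. That of TIR3 at 4 h was -1.13 without experiment 2, -1.38 without experiment 3 and -1.18 with experiments 2 and 3 summed. That of CWP2 at 2 h was 0.48 without experiment 2, 0.46 without experiment 3 and 0.47 with experiments 2 and 3 summed. That of CCW12 at 2 h was -0.30 without experiment 2, -0.30 without experiment 3 and -0.30 with experiments 2 and 3 summed. That of TIR1 at 2 h was -0.88 without experiment 2, -0.62 without experiment 3 and -0.75 with experiments 2 and 3 summed. Without the pairing of libraries, ECM33 at 2 h (1.01) and CCW12 at 4 h (-0.71) did not pass. TIR1 shares 64 of 426 windows of 75 bases with another place in the genome, so its counts are less certain than those of the others.

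**Figure D2:**
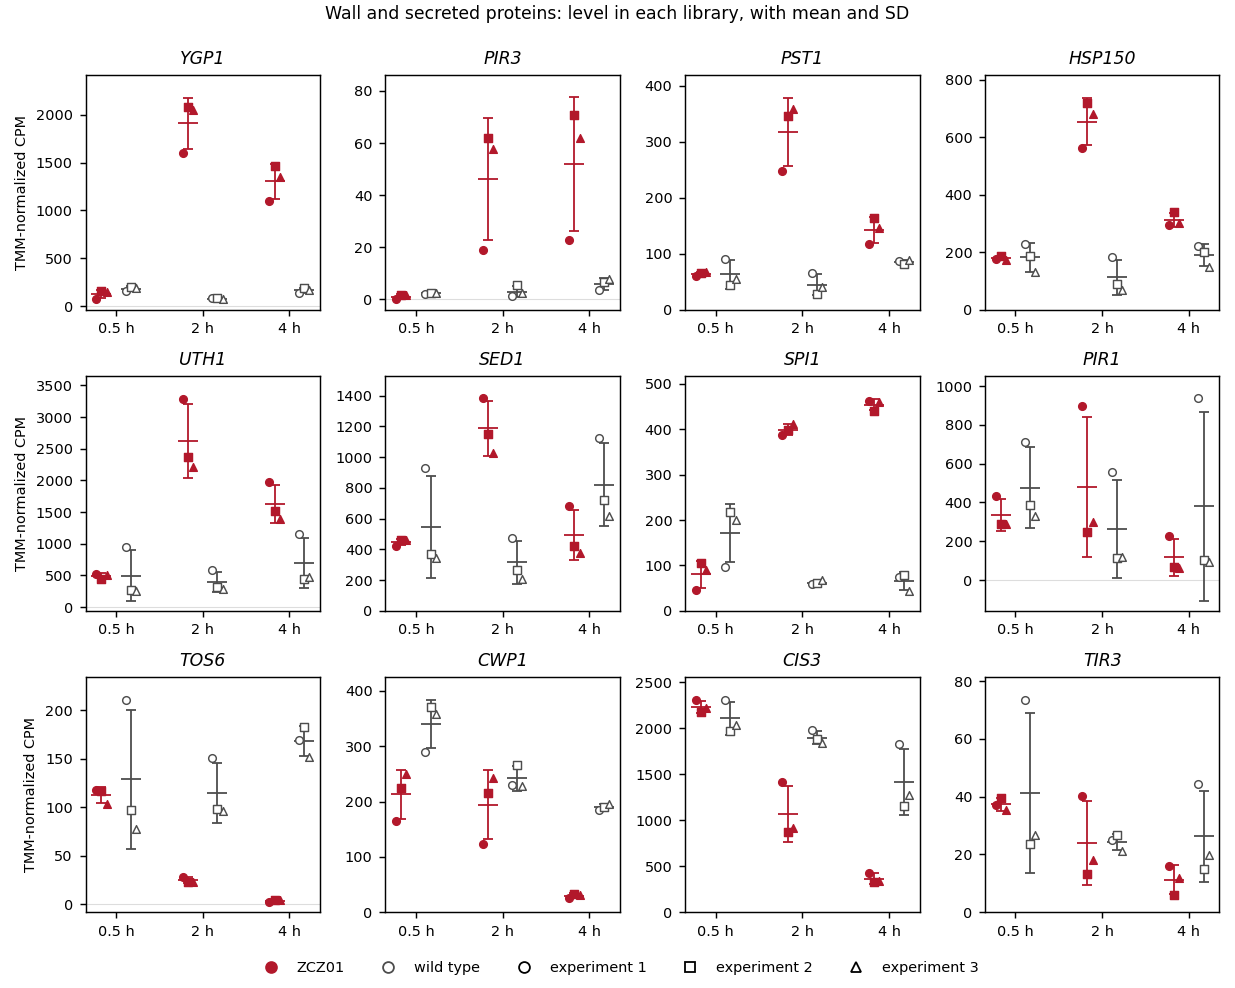
Level in each library (TMM-normalized CPM, linear axes from 0) of 12 genes of wall and secreted proteins at 0.5, 2 and 4 h. Filled red points are ZCZ01 and open grey points wild type, marker shape gives the experiment, and bars give the mean and SD of 3 libraries. YGP1 had 1303 ± 185 CPM in ZCZ01 and 166 ± 24.3 CPM in wild type at 4 h, and TOS6 had 3.45 ± 1.08 CPM in ZCZ01 and 168 ± 15.7 CPM in wild type.

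YGP1 (YNL160W, chrXIV:336545-337609), a secreted glycoprotein made under nutrient limitation and other stress, had the largest rise of the 45 genes at 2 h. It had 1599, 2080.0 and 2045 CPM in ZCZ01, against 81.7, 87.7 and 71.1 CPM in wild type at 2 h. Its levels at 4 h were 1099.8, 1460.2 and 1349 CPM in ZCZ01, against 139, 186 and 173 CPM in wild type. ZCZ01 was above wild type in every library at both times, and at 0.5 h it was below, with 80.5, 159.8 and 149 CPM in ZCZ01, against 160.5, 204 and 189 CPM in wild type. The log2 fold change was -0.56 (SE 0.16, adjusted p = 0.048) at 0.5 h, 4.57 (SE 0.17, adjusted p = 9.0e-10) at 2 h and 2.97 (SE 0.16, adjusted p = 8.8e-09) at 4 h. UTH1 (YKR042W, chrXI:519527-520624), a SUN family gene linked to wall biogenesis and oxidative stress, had 3285, 2363 and 2216 CPM in ZCZ01, against 586, 324 and 287 CPM in wild type at 2 h. At 4 h UTH1 had 1975, 1520.3 and 1389 CPM in ZCZ01, against 1157, 449.7 and 478 CPM in wild type. The groups did not overlap at either time. At 0.5 h wild type was spread, with 956, 278 and 259.7 CPM, and the groups overlapped. Its log2 fold change was 2.77 (SE 0.29, adjusted p = 7.0e-06) at 2 h and 1.35 (SE 0.28, adjusted p = 0.0016) at 4 h. SUN4, another SUN gene with glucanase-related function in septation, did not pass, with log2 fold changes of -0.32, 0.23 and -0.33 at 0.5, 2 and 4 h. The call of YGP1 at 0.5 h was lost, at log2 fold changes of -0.68 without experiment 2, -0.69 without experiment 3 and -0.68 with experiments 2 and 3 summed, and it was -0.34 without experiment 1. UTH1 at 4 h did not pass without the pairing of libraries (1.23).

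The 2 catalytic subunits of β-1,3-glucan synthase moved in opposite directions at 2 and 4 h. FKS1 (YLR342W, chrXII:809997-815627), the subunit of growing cells, had 223, 232 and 254 CPM in ZCZ01, against 462, 399.9 and 386 CPM in wild type at 2 h. At 4 h it had 278, 190.4 and 189 CPM in ZCZ01, against 736, 514 and 537 CPM in wild type. GSC2 (YGR032W, chrVII:548264-553951), also called FKS2, is the alternative subunit of stressed, starved and sporulating cells. GSC2 had 100, 122 and 121 CPM in ZCZ01, against 61.3, 72.0 and 74.8 CPM in wild type at 0.5 h. Its level was 235, 246 and 247 CPM in ZCZ01, against 125.1, 140.1 and 143 CPM in wild type at 2 h. Later, at 4 h, it was 296, 259 and 290.0 CPM in ZCZ01, against 111, 105 and 107 CPM in wild type. It was the one gene of the 45 that was higher in ZCZ01 at all 3 times, and its groups did not overlap at any of them, as those of FKS1 did not at 2 and 4 h. The log2 fold change of FKS1 was 0.01 at 0.5 h, -0.81 (SE 0.17, adjusted p = 0.0019) at 2 h and -1.45 (SE 0.17, adjusted p = 1.9e-05) at 4 h. That of GSC2 was 0.72 (SE 0.14, adjusted p = 0.0059) at 0.5 h, 0.84 (SE 0.13, adjusted p = 0.00018) at 2 h and 1.39 (SE 0.13, adjusted p = 2.2e-06) at 4 h. The early call of GSC2 was not reached in the smaller data sets, with 0.68 without experiment 2, 0.71 without experiment 3 and 0.69 with experiments 2 and 3 summed.

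The 3 genes of the Gas family of glucanosyltransferases among the 46, GAS1, GAS3 and GAS5, were all lower in ZCZ01 at 4 h. GAS1 (YMR307W, chrXIII:887003-888682), the main enzyme of the family in growing cells, had 663, 482 and 444 CPM in ZCZ01, against 1657, 1040.1 and 1052 CPM in wild type at 2 h. At 4 h GAS1 had 481, 284 and 269 CPM in ZCZ01, against 1671, 994 and 1017 CPM in wild type. GAS3 (YMR215W, chrXIII:696796-698370) had 74.2, 30.5 and 53.2 CPM in ZCZ01, against 142, 119.7 and 112 CPM in wild type at 2 h. At 4 h GAS3 had 42.5, 26.3 and 25.1 CPM in ZCZ01, against 196, 91.5 and 108 CPM in wild type. For both genes no library overlapped at 2 or 4 h. GAS5 (YOL030W, chrXV:268187-269641) had 126, 102 and 113 CPM in ZCZ01, against 134, 78.3 and 82.3 CPM in wild type at 2 h, which overlapped. Its levels at 4 h were 34.8, 79.0 and 73.8 CPM in ZCZ01, against 203, 179 and 138 CPM in wild type, with all ZCZ01 libraries below wild type. GAS1 changed by -1.23 (SE 0.11, adjusted p = 2.0e-06) at 2 h and -1.84 (SE 0.11, adjusted p = 3.4e-08) at 4 h on the log2 scale. The change of GAS3 was -1.28 (SE 0.19, adjusted p = 0.00015) and -2.05 (SE 0.20, adjusted p = 3.6e-06). That of GAS5 was 0.24 at 2 h, where it did not pass, and -1.51 (SE 0.30, adjusted p = 0.0014) at 4 h. Together with FKS1, 3 of the 5 glucan synthases and glucanosyltransferases were lower at 2 h (60%, against 23.2% of all genes tested). At 4 h 4 of the 5 were lower (80%, against 21.4%). The probe of GAS1 overlaps YMR307C-A on the opposite strand.

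The letters CNCGAAA, the core of the site bound by SBF, were present in the upstream windows of 22 of the 46 genes (47.8%), against 23.9% of the windows of all genes. They were held by 7 of the 9 genes lower at 2 h, 4 of the 15 higher and 11 of the 21 that did not pass, and by 12 of the 18 genes lower at 4 h, 1 of the 8 higher and 9 of the 19 that did not pass. Windows of the falling genes TOS6, FKS1 and GAS1 are shown on the coding strand of each gene, where a match on the other strand reads as the reverse complement.
TOS6 (chrXIV:65302-65331, plus strand, 430 bases before the start codon): aaaaccgcgcgtCACGAAAaagcaggaagc
TOS6 (chrXIV:65332-65361, plus strand, 400 bases before the start codon): acaaagaagtgaCGCGAAAatgacggtata
TOS6 (chrXIV:65388-65417, plus strand, 344 bases before the start codon): tgaagatcctgaCACGAAAtgtagcagagt
FKS1 (chrXII:809483-809512, plus strand, 502 bases before the start codon): tgggcgacgaatTTTCGCGttttgatgaag
FKS1 (chrXII:809589-809618, plus strand, 396 bases before the start codon): ttataacctagtCTCGAAAattttcatcga
GAS1 (chrXIII:886634-886663, plus strand, 357 bases before the start codon): agttcgatatatTTTCGCGgctcgcgtttt
GAS1 (chrXIII:886677-886706, plus strand, 314 bases before the start codon): tttacactgagtTTTCGTGccgcaaacgtg
TOS6 thus carried 3 copies within 600 bases, all on its coding strand. FKS1 and SCW10, lower at 4 h, and SUN4, which did not pass at any time, also had 3. GSC2, higher at all 3 times, had 2. These matches are given as a description of sequence only, and a role of SBF was not tested. The share of windows with these letters was not counted among all genes that were higher or lower. FKS1 had a further copy at the far end of its window. TANNNNTAG was held by 13 of the 15 genes higher at 2 h, 7 of the 9 lower and 18 of the 21 that did not pass, and at 4 h by 6 of the 8 higher, 16 of the 18 lower and 16 of the 19 that did not pass. AGGGG, the core letters of the stress factors Msn2 and Msn4, was in 32.6% of the windows of the 46 genes and 39.2% of all windows, in 7 of the 15 genes higher at 2 h, 3 of the 9 lower and 5 of the 21 that did not pass. At 4 h it was in 5 of the 8 higher, 6 of the 18 lower and 4 of the 19 that did not pass, and at 0.5 h in the 3 genes that were lower.

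Of the 4 glucanases, 3 were lower in ZCZ01 at 4 h (75%, against 21.4% of all genes tested). At 2 h EXG1 was higher (25%, against 19.1%) and SCW4 lower (25%, against 23.2%). SCW4 (YGR279C, chrVII:1048798-1049958), a soluble wall protein similar to glucanases, had 224, 488 and 439 CPM in ZCZ01, against 922, 867 and 903 CPM in wild type at 2 h, with no overlap. At 0.5 h its wild type libraries were far apart, with 239.9, 936 and 969 CPM. SCW10 (YMR305C, chrXIII:879063-880232), its close relative, had 192, 89.1 and 105 CPM in ZCZ01, against 372, 198 and 202 CPM in wild type at 4 h. BGL2 (YGR282C, chrVII:1057783-1058724), the major endo-β-1,3-glucanase of the wall, had 232, 217 and 204 CPM in ZCZ01, against 730.4, 416 and 423 CPM in wild type at 4 h. For SCW10 and BGL2 all ZCZ01 libraries at 4 h were below all wild type libraries. This corresponded to log2 fold changes of -1.30 (SE 0.38, adjusted p = 0.015) for SCW4 at 2 h, -1.01 (SE 0.16, adjusted p = 0.00019) for SCW10 at 4 h and -1.22 (SE 0.21, adjusted p = 0.00048) for BGL2 at 4 h.

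EXG1, the major exo-β-1,3-glucanase, averaged 394 ± 24.3 CPM in ZCZ01 and 233 ± 40.9 CPM in wild type at 2 h and 132 ± 39.2 CPM in ZCZ01 and 245 ± 50.4 CPM in wild type at 4 h (SD, n = 3 each). The groups did not overlap at either time, above wild type at 2 h and below it at 4 h. Its log2 fold change was 0.77 (SE 0.16, adjusted p = 0.0018) at 2 h and -0.89 (SE 0.17, adjusted p = 0.00078) at 4 h. The call of EXG1 at 2 h was lost without experiment 3 (0.73), and that of SCW10 at 4 h without the pairing of libraries (-0.99992). The probe of SCW10 overlaps YMR304C-A on the same strand.

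The 4 chitin enzymes did not change together. CRH1 (YGR189C, chrVII:876669-878192) and UTR2 (YEL040W, chrV:78053-79456), which link chitin to glucan, were lower in ZCZ01 at 4 h, and the synthases CHS1 and CHS3 were not. That is 2 of 4 genes lower at 4 h (50%, against 21.4% of all genes tested). At 2 h 1 of the 4 was higher (25%, against 19.1%). CRH1 had 143, 184 and 148 CPM in ZCZ01, against 145, 153 and 149 CPM in wild type at 2 h, which overlapped. At 4 h CRH1 had 51.3, 66.2 and 72.8 CPM in ZCZ01, against 150.1, 249.9 and 266 CPM in wild type, with no overlap. UTR2 had 99.3, 121 and 117 CPM in ZCZ01, against 182, 156 and 142 CPM in wild type at 2 h. At 4 h UTR2 had 45.8, 33.8 and 46.6 CPM in ZCZ01, against 176, 147 and 161 CPM in wild type, with the ZCZ01 libraries below wild type at both times. The log2 fold change at 4 h was -1.78 (SE 0.18, adjusted p = 4.0e-06) for CRH1 and -1.94 (SE 0.21, adjusted p = 8.6e-06) for UTR2, and at 2 h it was 0.08 and -0.51 without passing. CHS1, the synthase of septum repair, was higher at 2 h, with a log2 fold change of 0.50 (SE 0.15, adjusted p = 0.015), and this call was lost at 0.40 without experiment 2, 0.55 without experiment 3 and 0.48 with experiments 2 and 3 summed. CHS3, the synthase of most wall chitin, had log2 fold changes of -0.22, -0.27 and -0.02 at 0.5, 2 and 4 h and did not pass. KTR2, a mannosyltransferase of N-linked chains, had log2 fold changes of 0.56, 0.77 and 0.83 and did not pass either, although its ZCZ01 libraries were above those of wild type at 2 and 4 h.

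**Figure D3:**
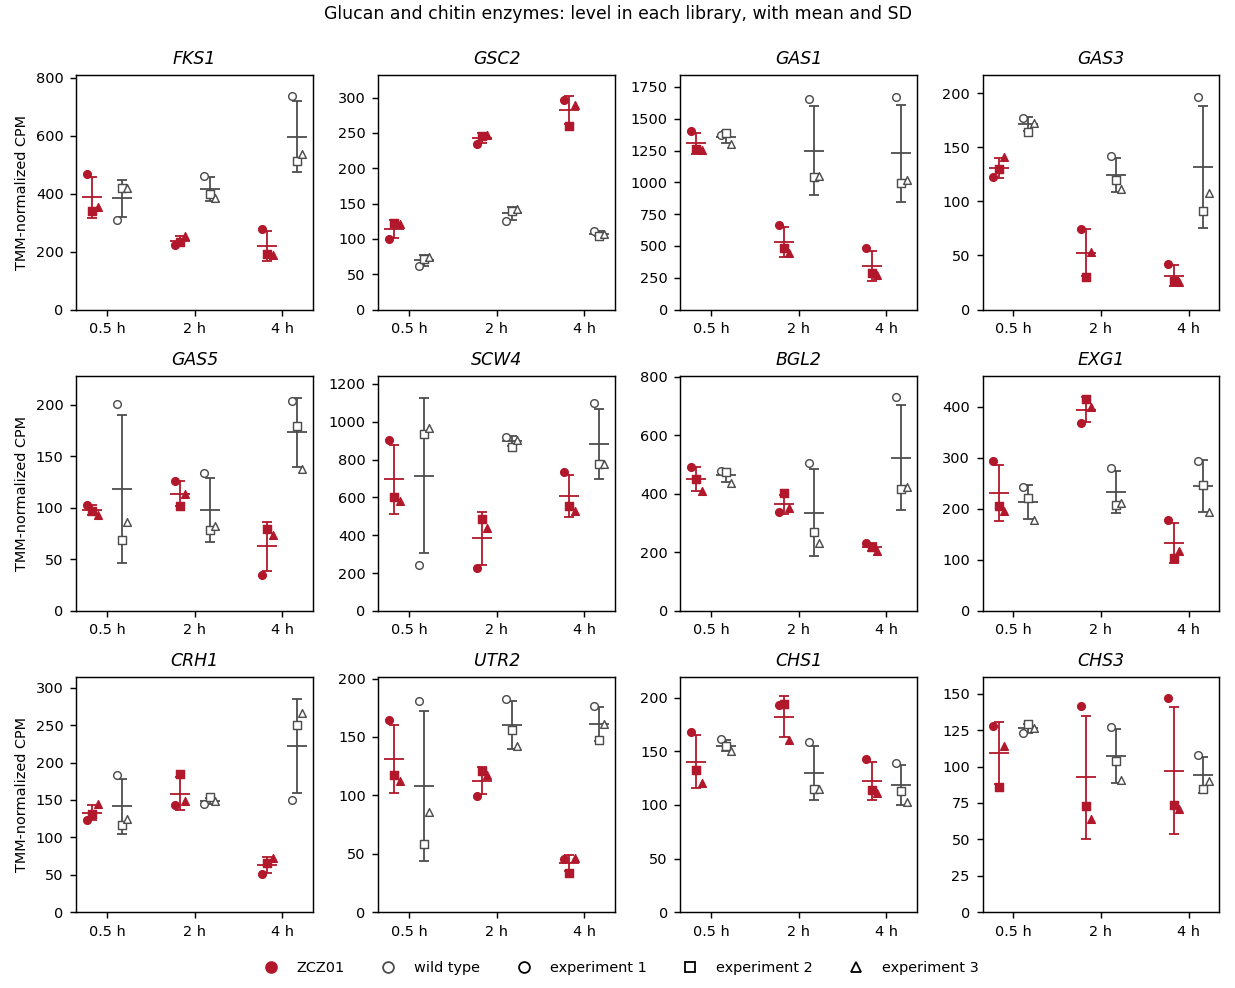
Level in each library (TMM-normalized CPM, linear axes from 0) of 12 glucan and chitin enzyme genes at 0.5, 2 and 4 h, drawn as filled red points for ZCZ01 and open grey points for wild type with the mean and SD of 3 libraries. At 4 h FKS1 had 219 ± 51.0 CPM in ZCZ01 and 596 ± 122 CPM in wild type, while GSC2 had 282 ± 19.9 CPM in ZCZ01 and 107 ± 3.30 CPM in wild type.

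Whether the difference between the strains itself changed with time was tested as a contrast of the same model. Between 0.5 and 2 h the ratio of ZCZ01 to wild type rose for 11 genes (24.4%, background 12.5%) and fell for 7 (15.6%, background 18.2%). Between 2 and 4 h it fell for 19 of 45 genes (42.2%, background 6.88%) and rose for 0 (background 6.86%). At an unadjusted p under 0.05 the ratio rose for 2 genes, and by DESeq2 for 0. The median shift between 2 and 4 h was -0.77 on the log2 scale for the 45 genes and 0.043 for all genes tested. The fall included genes that were high at 2 h and less so at 4 h, such as YGP1, with a difference of -1.59 (SE 0.22, adjusted p = 0.00079), PST1, with -2.13 (SE 0.39, adjusted p = 0.0038), and HSP150, with -1.92 (SE 0.37, adjusted p = 0.0052). In wild type YGP1, PST1 and HSP150 also rose over this interval, as given below. SED1, EXG1 and PIR1 were higher in ZCZ01 at 2 h and lower at 4 h, and their differences were -2.72 (SE 0.34, adjusted p = 0.00051), -1.66 (SE 0.23, adjusted p = 0.00084) and -2.22 (SE 0.34, adjusted p = 0.0014). Genes near wild type at 2 h and low at 4 h also took part, such as CWP1, with -2.30 (SE 0.26, adjusted p = 0.00025), and CRH1, with -1.86 (SE 0.25, adjusted p = 0.00064). SPI1, PIR3 and GSC2 had ratios that did not differ detectably between 2 and 4 h, with differences of 0.14 (SE 0.24, adjusted p = 0.73), -0.91 (SE 0.57, adjusted p = 0.30) and 0.55 (SE 0.18, adjusted p = 0.059).

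These counts depended on which experiments were used. The genes whose ratio fell between 2 and 4 h were 23, 7 and 5 without experiments 1, 2 and 3, and 5 with 2 and 3 summed. Those whose ratio rose in that interval were 3, 0 and 0 without experiments 1, 2 and 3, and 0 with 2 and 3 summed. The genes whose ratio fell between 0.5 and 2 h were 10, 3 and 2 without experiments 1, 2 and 3, and 2 with 2 and 3 summed. Those whose ratio rose were 15, 8 and 8 without experiments 1, 2 and 3, and 8 with 2 and 3 summed. Counts over all genes moved as well, with 5585, 5686, 5646 and 5731 genes tested under these settings, in the same order. Between 2 and 4 h the ratio fell for 963, 54, 27 and 43 of them and rose for 1005, 12, 7 and 10. Between 0.5 and 2 h it fell for 1332, 480, 430 and 472 and rose for 1022, 361, 309 and 377.

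**Figure D4:**
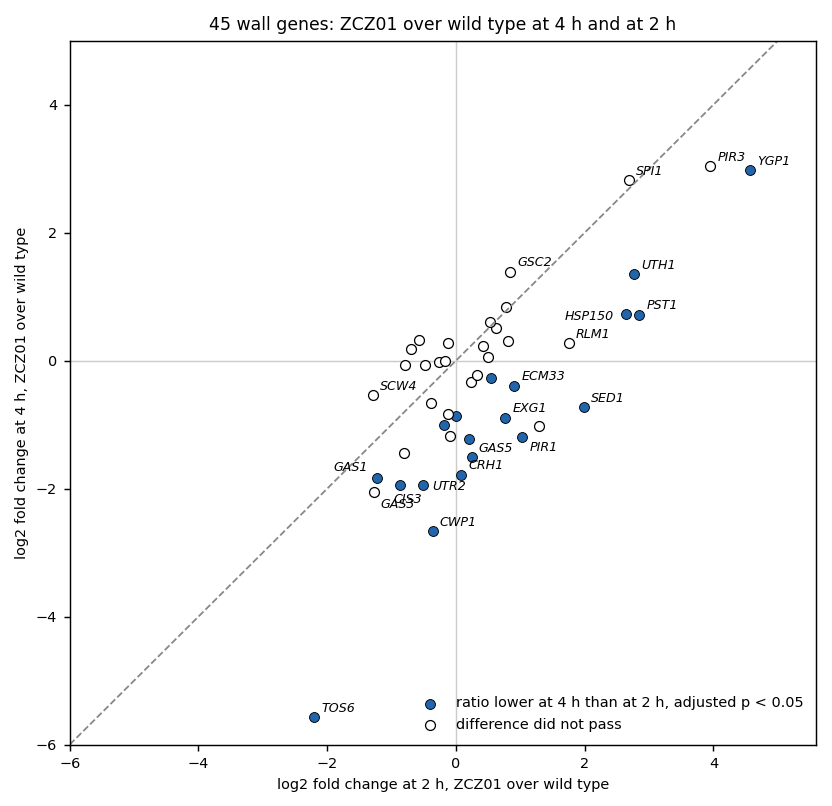
Log2 fold change of ZCZ01 over wild type at 4 h (vertical axis) against that at 2 h (horizontal axis) for 45 wall genes, with the dashed line marking equal values. Blue points are the 19 genes whose ratio was lower at 4 h than at 2 h at an adjusted p under 0.05, all of them below the line, and SED1, EXG1 and PIR1 lie at the lower right, higher in ZCZ01 at 2 h and lower at 4 h.

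Of the 5 sensors, 1 was lower in ZCZ01 at 2 h (20%, against 23.2% of all genes tested) and 1 at 4 h (20%, against 21.4%), which is near the background. WSC3 was the one lower at 2 h, with a log2 fold change of -0.70 (SE 0.23, adjusted p = 0.027), and MID2 the one lower at 4 h, with -0.83 (SE 0.27, adjusted p = 0.025). WSC3 averaged 20.3 ± 1.09 CPM in ZCZ01 and 33.1 ± 2.37 CPM in wild type at 2 h, and MID2 averaged 29.2 ± 5.76 CPM in ZCZ01 and 53.1 ± 16.9 CPM in wild type at 4 h (SD, n = 3 each). Neither group overlapped with wild type at that time. For MID2 the highest ZCZ01 library (33.3 CPM) and the lowest wild type library (33.7 CPM) were nearly equal. Both were of experiment 3, where the log2 ratio was -0.0156. Both calls were fragile. That of WSC3 was lost at -0.61 without experiment 1, -0.69 without experiment 2, -0.69 without experiment 3 and -0.68 with experiments 2 and 3 summed and also by DESeq2 (-0.66), and that of MID2 was lost at -0.50 without experiment 1 and -0.73 without experiment 2. WSC1, a main sensor of heat and wall stress, had log2 fold changes of -0.34, 0.33 and -0.22 at 0.5, 2 and 4 h. It rested on 30 to 56 reads per strain and time (SE 0.42 to 0.46). WSC2 had -0.10, -0.48 and -0.07. MTL1, a relative of MID2, was near the limit of detection, with 8 to 26 reads per strain and time, and had -0.77, 1.28 and -1.02 without passing. The probe of MID2 overlaps JIP3 and that of MTL1 overlaps YGR022C, both on the opposite strand.

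Downstream of the sensors, RLM1 and ROM2 were higher in ZCZ01 at 2 h and ROM2 at 4 h, and the 5 kinase genes did not pass at any time. That is 2 of 7 genes higher at 2 h (28.6%, against 19.1% of all genes tested) and 1 of 7 at 4 h (14.3%, against 19.9%). At 2 h the genes of these 7 that were higher were 4, 1 and 1 without experiments 1, 2 and 3, and 2 with 2 and 3 summed. RLM1 (YPL089C, chrXVI:379120-381150), the transcription factor at the end of the pathway, had 25.1, 63.2 and 34.0 CPM in ZCZ01, against 7.55, 10.96 and 15.9 CPM in wild type at 2 h. At 4 h it had 7.18, 35.1 and 32.8 CPM in ZCZ01, against 11.2, 23.6 and 21.8 CPM in wild type, which overlapped. Its log2 fold change was 1.75 (SE 0.34, adjusted p = 0.0011) at 2 h, where the ZCZ01 libraries were above those of wild type, and 0.27 at 4 h. ROM2, the exchange factor that activates Rho1, averaged 119 ± 29.9 CPM in ZCZ01 and 76.4 ± 14.8 CPM in wild type at 2 h and 117 ± 4.69 CPM in ZCZ01 and 82.4 ± 10.1 CPM in wild type at 4 h (SD, n = 3 each), with no overlap. Its log2 fold change was 0.63 (SE 0.15, adjusted p = 0.0045) at 2 h and 0.50 (SE 0.15, adjusted p = 0.016) at 4 h. These calls were lost at 0.67 without experiment 2 and 0.71 without experiment 3 for 2 h and at 0.42 without experiment 2, 0.60 without experiment 3 and 0.50 with experiments 2 and 3 summed for 4 h.

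The kinase genes did not pass, but not all of their differences were small. PKC1, protein kinase C, had log2 fold changes of -0.11, -0.17 and -0.01 at 0.5, 2 and 4 h. BCK1, the first kinase of the cascade, had 0.27, -0.13 and 0.27. For the paired second kinases the values were -0.26, 0.52 and 0.61 for MKK1 and -0.56, -0.58 and 0.33 for MKK2. In size, those of MKK1 at 2 and 4 h (SE 0.26 each) were near those of ROM2 (SE 0.15 each). So were those of MKK2 at 0.5 and 2 h (SE 0.33 and 0.32). MKK1 had 73 to 163 reads per strain and time and MKK2 75 to 163, so differences of this size could be missed. SLT2, the MAP kinase, had 0.06, 0.41 and 0.23, and averaged 62.2 ± 4.27 CPM in ZCZ01 and 47.1 ± 7.97 CPM in wild type at 2 h (SD, n = 3 each), when its groups did not overlap. These values concern mRNA, and the activity of the kinases was not measured here. The probe of MKK1 overlaps YOR231C-A on the opposite strand.

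**Figure D5:**
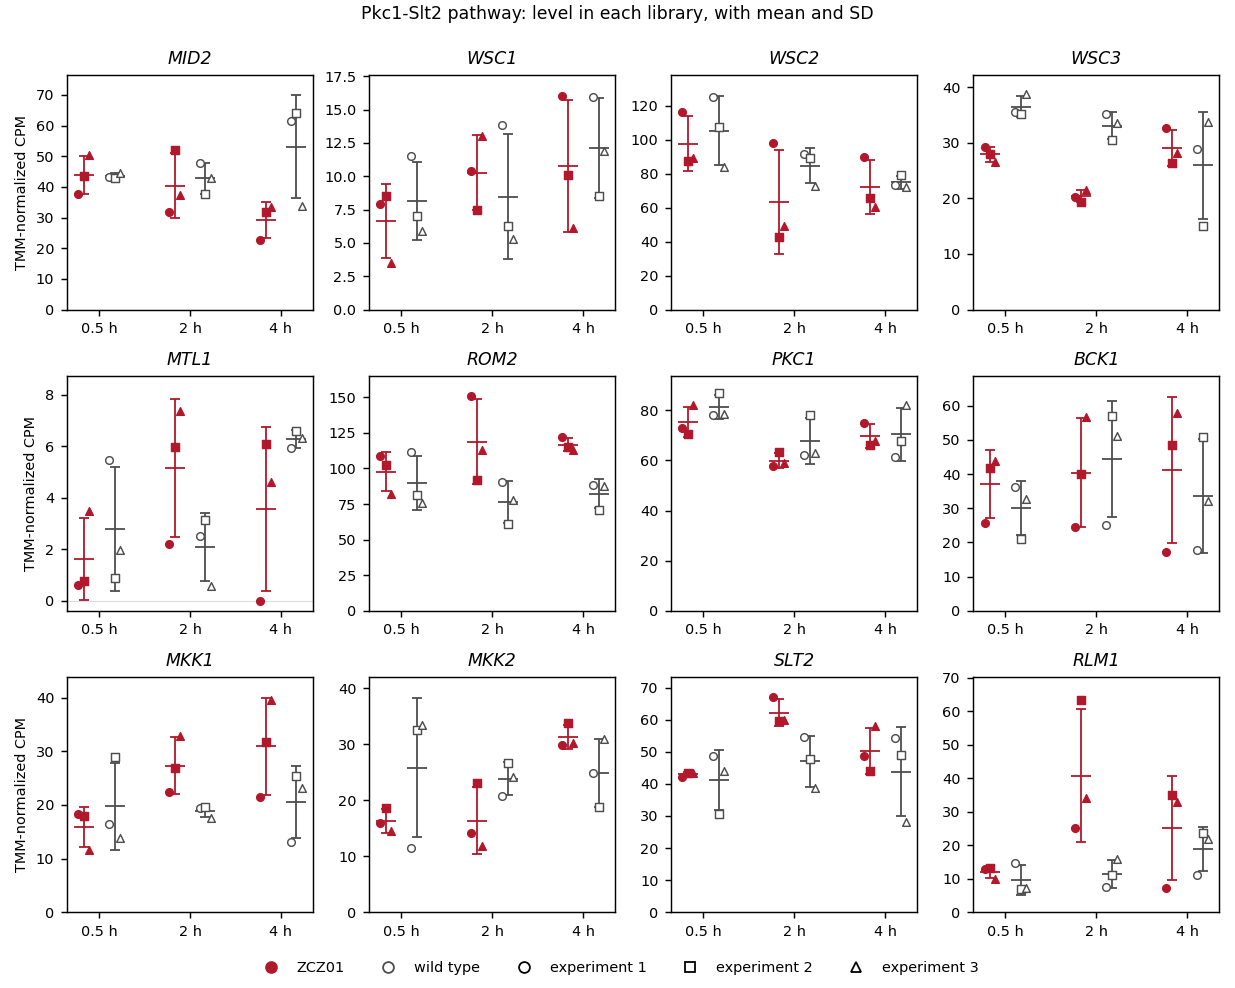
Level in each library (TMM-normalized CPM, linear axes from 0) of 5 sensor genes and 7 genes of the pathway downstream at 0.5, 2 and 4 h, with filled red points for ZCZ01, open grey points for wild type, marker shapes for the 3 experiments and bars for the mean and SD. RLM1 had 40.8 ± 19.96 CPM in ZCZ01 and 11.5 ± 4.19 CPM in wild type at 2 h, and PKC1 had 60.0 ± 2.86 CPM in ZCZ01 and 67.8 ± 9.06 CPM in wild type.

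Some of these genes also changed with time in wild type, which received galactose as well. In a fit of the 9 wild type libraries with a term for the experiment, 43 of the 46 genes could be tested. Between 0.5 and 2 h, GSC2 was higher at 2 h (1 of 43, background 9.48%), with a log2 fold change of 0.98. Lower at 2 h were PIR1, HSP150, CCW14, SED1, SPI1 and YGP1 (6 of 43, background 6.91%). Their log2 fold changes were -1.28 for PIR1, -0.74 for HSP150, -0.64 for CCW14, -0.73 for SED1, -1.41 for SPI1 and -1.19 for YGP1. Of these 6 genes, 5 were among the 15 higher in ZCZ01 at 2 h, and the wild type libraries of 2 h enter both comparisons. Between 2 and 4 h, HSP150 (0.84), SED1 (1.43), PST1 (1.01) and YGP1 (1.04) were higher in wild type at 4 h (4 of 43, background 3.13%). These 4 genes were among the 19 whose ratio of ZCZ01 to wild type fell in that interval. The same wild type libraries enter both comparisons. By edgeR 0 genes were lower at 4 h (background 2.75%), against 2 at an unadjusted p under 0.05 and 1 by DESeq2. YGP1 in wild type had 160.5, 204 and 189 CPM at 0.5 h, 81.7, 87.7 and 71.1 CPM at 2 h and 139, 186 and 173 CPM at 4 h. The wild type course rested on experiments 2 and 3 being counted apart: the genes lower at 2 h than at 0.5 h were 20, 0 and 0 without experiments 1, 2 and 3, and 0 with 2 and 3 summed. Those higher at 4 h than at 2 h were 12, 0 and 0 without experiments 1, 2 and 3, and 0 with 2 and 3 summed. Higher at 2 h than at 0.5 h were 4, 0 and 0 without experiments 1, 2 and 3, and 0 with 2 and 3 summed, and lower at 4 h than at 2 h were 6, 0 and 0 without experiments 1, 2 and 3, and 0 with 2 and 3 summed. Under these settings, in the same order, 5342, 5466, 5426 and 5520 genes were tested in wild type. Lower at 2 h were 1173, 82, 72 and 80 of them, and higher 1141, 158, 134 and 171. Higher at 4 h were 965, 5, 2 and 5, and lower 946, 0, 0 and 0.

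To set these genes in their surroundings, 110 other genes of wall synthesis and of the pathway were counted in 5 lists, and 106 of them were tested. Of these, 1 was lower in ZCZ01 at 0.5 h (0.94%, background 2.30%). At 2 h 27 were higher (25.5%, background 19.1%) and 23 lower (21.7%, background 23.2%). At 4 h 24 were higher (22.6%, background 19.9%) and 29 lower (27.4%, background 21.4%). List counts without an experiment, or with 2 and 3 summed, stand beside the all-gene counts given above for those settings. Among 24 other GPI and Pir wall proteins, 10 were higher (41.7%, background 19.1%) and 3 lower (12.5%, background 23.2%) at 2 h. At 4 h 8 were higher (33.3%, background 19.9%) and 8 lower (33.3%, background 21.4%). AGA1, the anchor subunit of a-agglutinin, had log2 fold changes of 2.75 (SE 0.22, adjusted p = 5.1e-07) at 2 h and 3.56 (SE 0.22, adjusted p = 3.4e-08) at 4 h. The yapsin protease gene YPS1 had 2.41 (SE 0.42, adjusted p = 0.00049) at 2 h, and TIR4, a mannoprotein gene related to TIR1, had 1.90 (SE 0.53, adjusted p = 0.012) at the same time. PRY3 had -3.67 (SE 0.96, adjusted p = 0.0078) at 4 h, and the siderophore-binding mannoprotein genes FIT2 and FIT1 had -1.60 (SE 0.21, adjusted p = 5.1e-05) at 2 h and -1.58 (SE 0.58, adjusted p = 0.042) at 4 h. At 4 h the GPI and Pir genes higher were 7, 4 and 2 without experiments 1, 2 and 3, and 2 with 2 and 3 summed. Those lower were 7, 3 and 1 without experiments 1, 2 and 3, and 4 with 2 and 3 summed. At 2 h those lower were 4, 3 and 2 without experiments 1, 2 and 3, and 3 with 2 and 3 summed.

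Among 23 other genes of glucan synthesis and remodelling, 9 were higher (39.1%, background 19.1%) and 1 lower (4.35%, background 23.2%) at 2 h. At 4 h 5 were higher (21.7%, background 19.9%) and 6 lower (26.1%, background 21.4%). NCA3, a further SUN family gene, had a log2 fold change of 4.08 (SE 0.25, adjusted p = 5.0e-08) at 2 h, next to UTH1 of the same family. Also at 2 h, SPR1, a glucanase known from sporulation, had 2.20 (SE 0.50, adjusted p = 0.0030), and SKN1, of β-1,6-glucan synthesis, had 1.24 (SE 0.32, adjusted p = 0.0073). The SUN gene SIM1 had -2.85 (SE 0.47, adjusted p = 0.00032) at 4 h, KNH1, of β-1,6-glucan synthesis, had -2.76 (SE 0.35, adjusted p = 3.3e-05) at 2 h, and RHO3 had -1.13 (SE 0.26, adjusted p = 0.0033) at 4 h. At 2 h the genes of this list that were higher were 11, 5 and 4 without experiments 1, 2 and 3, and 7 with 2 and 3 summed. At 2 h those lower were 2, 1 and 1 without experiments 1, 2 and 3, and 1 with 2 and 3 summed, and at 4 h those higher were 6, 3 and 2 without experiments 1, 2 and 3, and 3 with 2 and 3 summed.

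Of 16 other chitin genes, CTS1 was lower at 0.5 h (-0.68), which is 6.25% (background 2.30%). At 2 h 3 genes were higher (18.75%, background 19.1%) and 3 lower (18.75%, background 23.2%). At 4 h 3 were higher (18.75%, background 19.9%) and 4 lower (25%, background 21.4%). The chitin deacetylase gene CDA1 had a log2 fold change of 4.22 (SE 0.49, adjusted p = 1.5e-05) at 4 h and the endochitinase gene CTS1 had 1.24 (SE 0.13, adjusted p = 7.3e-06) at 2 h, and CRR1, a homolog of CRH1, had 1.15 (SE 0.41, adjusted p = 0.038) at 4 h. CHS2, the synthase of the primary septum, had -1.97 (SE 0.28, adjusted p = 8.0e-05) at 4 h, and GNA1 and GFA1, of the supply of the chitin precursor, had -1.45 (SE 0.38, adjusted p = 0.0081) and -1.27 (SE 0.28, adjusted p = 0.0025) at that time. At 0.5 h those lower were 3, 0 and 0 without experiments 1, 2 and 3, and 0 with 2 and 3 summed, and at 2 h they were 3, 0 and 0 without experiments 1, 2 and 3, and 0 with 2 and 3 summed. At 4 h those lower were 7, 3 and 3 without experiments 1, 2 and 3, and 3 with 2 and 3 summed. Those higher were 2, 1 and 2 without experiments 1, 2 and 3, and 2 with 2 and 3 summed at 4 h.

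Of 28 genes of protein mannosylation, 2 were higher (7.14%, background 19.1%) and 13 lower (46.4%, background 23.2%) in ZCZ01 at 2 h. At 4 h 3 were higher (10.7%, background 19.9%) and 9 lower (32.1%, background 21.4%). The mannosyltransferase genes KTR5 and MNN11 had log2 fold changes of -1.48 (SE 0.29, adjusted p = 0.0011) and -1.39 (SE 0.17, adjusted p = 2.7e-05) at 2 h, and KTR6 had -1.46 (SE 0.23, adjusted p = 0.00019) at 4 h. MNT4 was higher at 2 h, with 0.98 (SE 0.28, adjusted p = 0.012), and KTR4 and MNT3 were higher at 4 h, with 0.59 (SE 0.13, adjusted p = 0.0030) and 0.51 (SE 0.16, adjusted p = 0.022). The genes lower at 2 h were 12, 6 and 7 without experiments 1, 2 and 3, and 8 with 2 and 3 summed. Those higher at 2 h were 5, 0 and 0 without experiments 1, 2 and 3, and 0 with 2 and 3 summed. At 4 h the lower ones were 12, 5 and 7 without experiments 1, 2 and 3, and 7 with 2 and 3 summed. The higher ones were 5, 0 and 0 without experiments 1, 2 and 3, and 0 with 2 and 3 summed.

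Of 16 further genes of the Pkc1-Slt2 pathway and its regulators, 3 were higher (18.75%, background 19.1%) and 3 lower (18.75%, background 23.2%) at 2 h. At 4 h 5 were higher (31.25%, background 19.9%) and 3 lower (18.75%, background 21.4%). SDP1, a phosphatase that acts on Slt2, had a log2 fold change of 1.60 (SE 0.38, adjusted p = 0.0041) at 4 h, and the Rho1 exchange factor genes ROM1 and TUS1 had 1.18 (SE 0.17, adjusted p = 0.00013) at 2 h and 1.09 (SE 0.19, adjusted p = 0.00048) at 4 h. SWI4, the DNA-binding subunit of SBF, had -1.13 (SE 0.32, adjusted p = 0.012) at 2 h, and RHO1, the GTPase of the pathway, had -0.91 (SE 0.14, adjusted p = 0.00020) at 4 h. SWI6, the other subunit of SBF, had -0.77 (SE 0.22, adjusted p = 0.014) at 4 h. At 2 h the higher ones were 5, 1 and 1 without experiments 1, 2 and 3, and 1 with 2 and 3 summed. The lower ones were 3, 1 and 1 without experiments 1, 2 and 3, and 0 with 2 and 3 summed. At 4 h the higher ones were 6, 4 and 2 without experiments 1, 2 and 3, and 4 with 2 and 3 summed. The lower ones were 3, 1 and 2 without experiments 1, 2 and 3, and 2 with 2 and 3 summed.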

How the data were processed

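RNA libraries were QuantSeq 3′ mRNA libraries of ZCZ01 and wild type BY4741 at 0.5, 2 and 4 h. The deposited values are whole-number read counts per gene probe, made by the authors with Bowtie2 as the aligner, each probe being a gene with 100 nt downstream. The counting tool, its strand setting and the Bowtie2 version are not given in the sources used here. Counts were scaled by TMM and genes with low counts were left out (filterByExpr over the 6 groups), which kept 5658 genes, or 5423 in the fit of wild type alone. The main model of edgeR 4.0.16 (R 4.3.3, limma 3.58.1) had a term for each of the 9 pairs of libraries of 1 experiment and time and a strain effect at each time. The experiment numbers come from the labels, and paired libraries deviated together from their group means, at correlations of 0.535 to 0.814 across genes. Experiment 1 stood apart from experiments 2 and 3 in every group, and libraries of different times were not compared in this way. The correlations therefore cannot show that libraries of 1 time were paired. Levels and figures used Python 3.11.15, numpy 2.4.6, pandas 2.3.3 and matplotlib 3.10.9.

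Alternatives were DESeq2 1.42.0, RLE and total-count scaling, no depth correction, other filters, other blocks, times from the sample titles, each experiment left out, and experiments 2 and 3 summed. The counts per gene list under these alternatives were added after the data had been seen. The method was tested on simulated data. All 46 genes are named, and per-library levels are given for those that passed with at least a 2-fold change at some time, while of the other lists up to 3 genes in each direction with the largest change are named. The genes, lists and motifs were chosen with earlier results of these data known. Upstream windows and coordinates are those of the R64 assembly. Protein sequences were not analysed here. The result for 1 planned promoter motif is not reported here.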

Additional observations from a re-analysis of the deposited data

Results flagged for a closer look

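For 18 genes the difference between the strains at 2 h was not the difference at 0.5 h, by the test of that change in edgeR's model at an adjusted p under 0.05. Values are differences of log2 fold changes. The ratio of ZCZ01 to wild type was higher at 2 h for PIR3 (5.15), YGP1 (5.12), SPI1 (3.77), PST1 (2.79), HSP150 (2.63), UTH1 (2.51), SED1 (2.11), PIR1 (1.48), ECM33 (0.78), EXG1 (0.66) and CHS1 (0.65). It was lower at 2 h for TOS6 (-2.12), GAS1 (-1.17), CIS3 (-0.95), GAS3 (-0.89), UTR2 (-0.89), FKS1 (-0.83) and CCW12 (-0.42).

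For 19 genes the strain difference at 4 h was not the difference at 2 h by the same test, and all 19 moved down. They were TOS6 (-3.37), SED1 (-2.72), CWP1 (-2.30), PIR1 (-2.22), PST1 (-2.13), HSP150 (-1.92), CRH1 (-1.86), GAS5 (-1.75), EXG1 (-1.66), YGP1 (-1.59), UTR2 (-1.43), BGL2 (-1.42), UTH1 (-1.41), ECM33 (-1.29), CIS3 (-1.08), CCW14 (-0.86), SCW10 (-0.82), CWP2 (-0.82) and GAS1 (-0.61).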

How the results depend on the processing

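The counts of the 45 genes that passed (higher, then lower, in ZCZ01) rested most on experiments 2 and 3 and on the times taken from the library names. Leaving out 1 experiment at a time gave 0 to 8 and 0 to 7 genes at 0.5 h, 11 to 20 and 6 to 11 at 2 h, and 5 to 9 and 15 to 19 at 4 h. For the change of the ratio it gave 8 to 15 upward and 2 to 10 downward between 0.5 and 2 h, and 0 to 3 upward and 5 to 23 downward between 2 and 4 h. In wild type it gave 0 to 4 higher and 0 to 20 lower at 2 h than at 0.5 h, and 0 to 12 higher and 0 to 6 lower at 4 h than at 2 h. Counts over all genes moved under these settings as well, as given above. With experiments 2 and 3 summed, 0 and 0 genes passed at 0.5 h and 5 were higher at 4 h, the ratio fell for 2 genes between 0.5 and 2 h and for 5 between 2 and 4 h, and in wild type 0 were higher and 0 lower at 2 h and 0 higher at 4 h. With the times of the sample titles, 0 genes were higher and 0 lower at each of 0.5, 2 and 4 h, the ratio rose for 0 and fell for 0 between 0.5 and 2 h and fell for 0 between 2 and 4 h, and in wild type 0 were higher at 2 h and 0 at 4 h. Over all 5658 genes, these titles gave 0, 2 and 1 higher at 0.5, 2 and 4 h and 0 lower at each time. The ratio changed for 0 of all genes in either interval. In wild type, 7 genes of the 45 did pass between 0.5 and 2 h by these titles, 3 of them also in the main fit and in the same direction. Over all 5423 genes tested, 214 were then higher and 228 lower. Under these titles the log2 fold change turned for PIR1 at 4 h (0.14), SED1 at 4 h (0.66), SPI1 at 0.5 h (1.58), YGP1 at 0.5 h (2.32) and EXG1 at 2 h (-0.11) and 4 h (0.11). Without the block for the pairing of libraries, 0 genes were lower at 0.5 h and 4 higher at 4 h, the ratio rose for 7 and fell for 3 between 0.5 and 2 h and fell for 9 between 2 and 4 h, and in wild type 2 were lower at 2 h and 1 higher at 4 h. Over all 5658 genes, 22 were lower at 0.5 h and 739 higher at 4 h without this block. Their ratio rose for 443 and fell for 601 between 0.5 and 2 h, and fell for 138 between 2 and 4 h. Of all 5423 genes in wild type, 216 were lower at 2 h and 48 higher at 4 h. With each time fitted alone, 0 of the 45 were higher and 1 lower at 0.5 h, against 70 and 38 of all 5323 genes tested. Without depth correction 1 was lower at 0.5 h, the ratio rose for 1 between 2 and 4 h, and 2 were higher in wild type at 4 h. Over all genes these counts were 53, 662 and 106. With total counts only, the ratio fell for 3 between 0.5 and 2 h, against 725 of all 5658 genes. With all 18 libraries in the wild type fit, and with DESeq2, 1 was lower in wild type at 4 h. Over all genes 326 of 5658 and 185 of 5423 were lower under these 2 settings. Without experiment 1 the log2 fold change at 0.5 h turned for SED1 (range over the experiments left out -0.43 to 0.38), FKS1 (-0.27 to 0.15) and SCW4 (-0.69 to 0.62), none of which had passed. The causes were not tested. Depth limits genes that rest on few reads, among them MTL1, WSC1, TIR2, KTR2, MKK1, MKK2, PIR3 at 0.5 h and TOS6 at 4 h.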
